A study of Mus musculus with 6 samples.

Results

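The forkhead genes of the mouse encode transcription factors that share a DNA-binding region, the forkhead or winged-helix domain, and they are named Fox with a letter for the subclass and a number for the gene. A gene was taken as a member when its symbol was Fox, a letter from a to s and a number, and when it had at least 1 probe set on the array that was annotated to it alone. This gave 37 of 18193 genes, which 82 probe sets measured. Of the members, 16 had 1 probe set and 21 had several, with up to 8 for Foxp1. Among several, the probe set whose mean log2 signal over the 6 arrays was highest stood for its gene.

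The members were compared between iLarge T BMSC (replicates 2, 4 and 6) and naïve Large T BMSC (replicates 1, 3 and 5). All 6 arrays hold bone marrow stromal cells (BMSC), by their labels, of the H-2Kb-tsA58 mouse, a CBA/ca × C57Bl/10 hybrid. These mice carry a temperature-sensitive large T antigen of the virus SV40 under the H-2Kb promoter, which is active in most cell types, and the protein keeps cells dividing at 33°C. Naïve Large T BMSC are the parent cells, grown out of the marrow of tibias and femurs as cells that stick to plastic. For iLarge T BMSC, the parent cells were injected into a vein of male C57Bl/6J mice, 6 to 8 weeks old, 24 h after a stroke made by closing the left middle cerebral artery for 60 min. The ischemic hemisphere was digested with collagenase 14 days later and its cells were grown again at 33°C, so the recovered cells were selected by growth in culture. Each array received a pool of RNA, from 3 hemispheres or from 3 naïve cell sets. The age of the marrow donors is not given in the sources used here.

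Values are MAS5 signals, which summarize how bright a probe set is, in linear units, and the number of arrays limits their precision. Over all tested probe sets (no independent replicates of one another), the correlation of log2 signals was 0.845 to 0.863 among the iLarge T arrays and 0.892 between naïve replicates 3 and 5, but 0.829 and 0.831 between these and naïve replicate 1. The naïve arrays also differed in genes of the Y chromosome. Eif2s3y had signals of 16802, 12022 and 9598 on the iLarge T arrays and 7564 on naïve replicate 1, against 3.4 and 15.2 on naïve replicates 3 and 5. Kdm5d likewise had 1002, 1765 and 1025 on the iLarge T arrays and 546 on naïve replicate 1, against 1.9 and 4.0 on naïve replicates 3 and 5. The labels call all naïve arrays the parent line, and whether replicates 3 and 5 are of the cells that were injected was not tested. Nnt, which is partly deleted in the C57Bl/6J strain of the recipients, gave 4180, 6423 and 5920 in iLarge T BMSC and 15756, 14093 and 14665 in naïve BMSC (2.74-fold higher in naïve BMSC, limma, adjusted p = 0.0109), and the part of recipient cells in the iLarge T values was not tested. Calls that changed without replicate 1, or with it as the lone naïve array, are given with their value. Of 14 markers of marrow stroma 2 were higher in iLarge T BMSC (14.3%, beside 3.54% of all genes) and 1 lower (7.14%, beside 3.26%). The 2 called higher were Cd44 (4.11-fold, limma, adjusted p = 0.0305) and Ebf1 (log2 4.52, limma, adjusted p = 0.0333). Ebf1 gave 6555, 2237 and 850 in iLarge T BMSC and 354, 106 and 27.5 in naïve BMSC, 2 of these under their 40th percentile. Cd44, Eng and Itgb1 were well above background on all 6 arrays. Lepr was dim, at 82.6 to 780 in iLarge T and 89.6 to 303.5 in naïve BMSC, as was Ebf3, at 15.6 to 669 and 98.9 to 165.5. The marker called lower was Vcam1, 7.01-fold higher in naïve BMSC (limma, adjusted p = 0.0013). Markers of mesothelium, the lining of the body cavities, were lower in iLarge T BMSC for 7 of 8 genes (87.5%, beside 3.26% of all genes). Their summed signals were 4043 to 5441 in iLarge T and 243601 to 305150 in naïve BMSC. iLarge T replicate 6 had the highest summed signal of 8 macrophage and microglia markers (50745, where replicates 2 and 4 had 5855 and 4667 and the naïve arrays 2616 to 10926) and of 8 endothelial markers (53957, where replicates 2 and 4 had 8118 and 8557 and the naïve arrays 6913 to 9951). These sums hide single genes. On the naïve arrays Tek alone had 5703, 8480 and 9080, and Cd68 alone 544, 9873 and 8396. Of the macrophage and microglia markers 1 was called higher (12.5%, beside 3.54% of all genes) and 0 lower. It was Csf1r, with 3716, 1892 and 5673 in iLarge T and 883, 330 and 339 in naïve BMSC (limma, adjusted p = 0.0151). Endothelial genes are given one by one below.

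Forkhead factors bind related DNA sites and act at different levels of a cell's identity. FoxA factors open closed chromatin in endoderm, the FoxC, FoxD and FoxF factors pattern mesenchyme, and Foxc1 and Foxf2 in mice are needed for normal meninges and brain pericytes. FoxM1 drives the genes of mitosis, and the FoxO factors are held in the cytoplasm by the insulin and Akt pathway until growth signals fall. FoxJ1 makes motile cilia, and Foxp3 defines regulatory T cells.

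A gene was called higher or lower in iLarge T BMSC at an adjusted p under 0.05 by limma, a linear model on log2 signals whose estimate of spread is shared across probe sets, together with a change of at least 2-fold. Of the 37 forkhead genes, 6 were called higher in iLarge T BMSC (16.2%), beside 3.54% of all 18193 genes, and 1 was called lower (2.70%), beside 3.26% of all genes. The 6 were Foxd1, Foxf2, Foxs1, Foxf1, Foxd2 and Foxc1, and the gene called lower was Foxa2. By subclass, these were 1 of 2 measured FoxC genes, 2 of 4 FoxD genes, 2 of 2 FoxF genes and the 1 FoxS gene. Taken from the calls themselves, this grouping of 9 measured members is a description and no test of the subclasses. The signals of all 3 iLarge T arrays lay above all 3 naïve arrays for 10 members (27.0%, beside 14.5% of all genes) and under them for 3 members (8.11%, beside 13.1%). The median log2 fold change, iLarge T minus naïve, was 0.23 over the members and 0.06 over all genes. In bulk RNA, more cells with a transcript and more transcript per cell cannot be told apart.

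**Figure D1:**
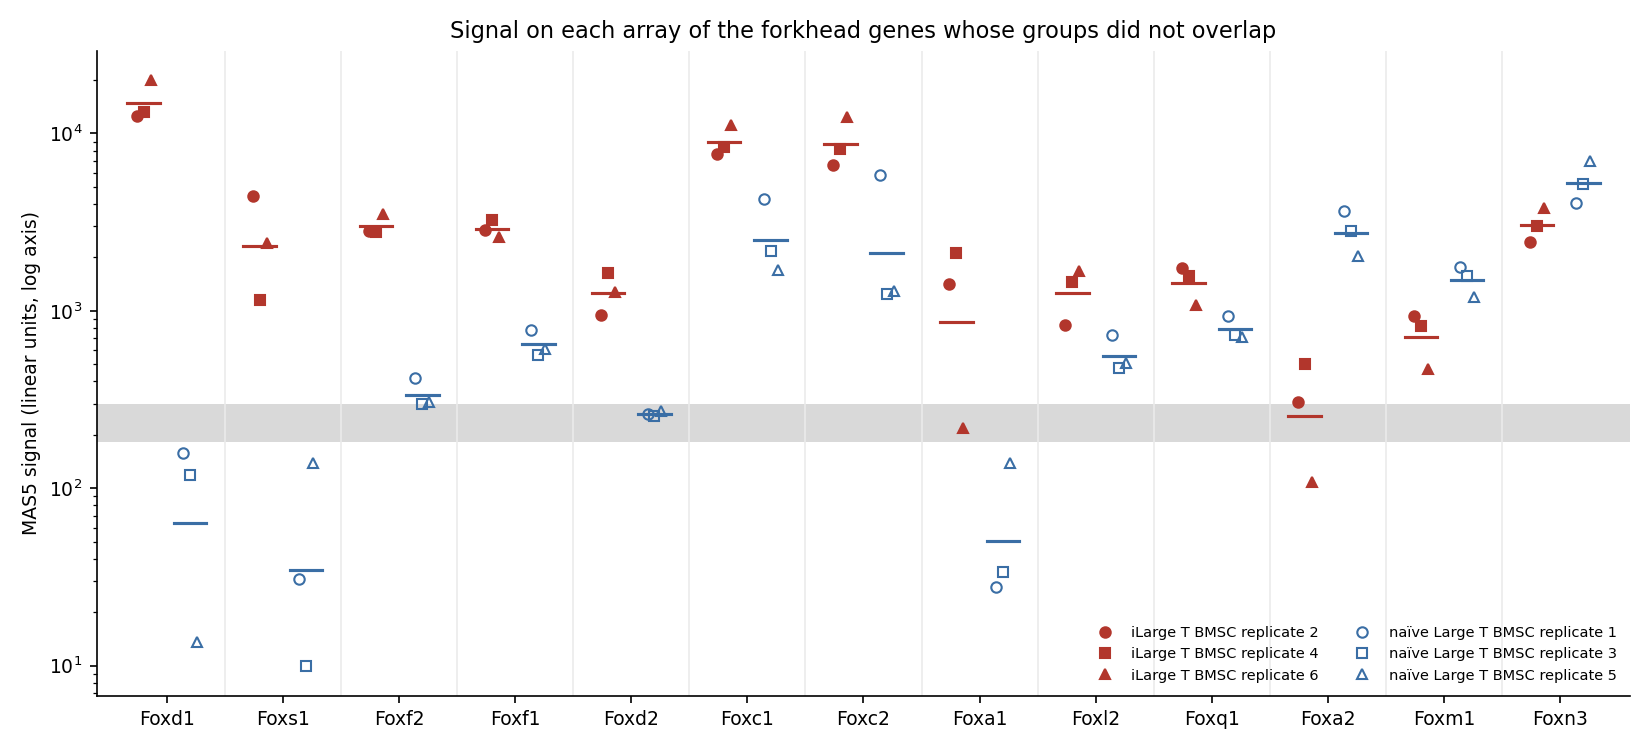
MAS5 signal (log axis) on each array for the 13 forkhead genes whose iLarge T and naïve arrays did not overlap, with the 3 iLarge T arrays filled in red at the left and the 3 naïve arrays open in blue at the right of each gene. Short lines are geometric means, and the grey band spans the arrays' 40th percentiles, 182.5 to 299.6. Foxd1, Foxs1 and Foxa1 lie under the band on all 3 naïve arrays, and Foxc2 on naïve replicate 1 lies close to the iLarge T arrays.

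These calls depended on the test and on single arrays. The methods' t-test, unpaired and with Benjamini-Hochberg adjustment, called 0 members on log2 or on linear signals. On these scales 11 and 9 members had an unadjusted p under 0.05 (12 by limma). Leaving out 1 array gave 3 to 7 members called higher (3 without iLarge T replicate 2 or 4), with Foxd1 and Foxf2 called each time. The shares of all genes at these settings were not counted, so these counts of members have no comparison. With naïve replicate 1 as the lone naïve array, 3 members were called higher, namely Foxd1, Foxf2 and Foxs1, and 0 lower.

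Foxd1 marks stromal progenitors of the mouse kidney, whose descendants include pericytes, the contractile cells that wrap capillaries. Its probe set (1418876_at, the single one of the gene) gave signals of 12584, 13128 and 19985 in iLarge T BMSC, against 158, 119 and 13.5 in naïve BMSC. The 3 iLarge T arrays were all high and far above the naïve arrays, each of which was below the 40th percentile of its own array, here called near background. A fold against such a group is a lower bound, set by the 40th percentile. On this reckoning Foxd1 was at least 68.1-fold higher in iLarge T BMSC (limma, adjusted p = 0.00109), and the bound lay between 58.8 and 77.3 with any 1 array left out.

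Foxf2 is needed in mice for the differentiation of brain pericytes and a tight blood-brain barrier. Its signal was 2823, 2772 and 3505 in iLarge T BMSC and 419, 298 and 304 in naïve BMSC. The groups were well apart and each was tight. Foxf2 was 8.96-fold higher in iLarge T BMSC (log2 3.16 ± 0.39 SE, limma, adjusted p = 0.00233). Its other probe set (1447562_at) was near background on all 6 arrays, at 5.0 to 48.9 in iLarge T and 13.1 to 88.6 in naïve BMSC, so the mean of its probe sets gave 0.87 on the log2 scale (adjusted p = 0.613).

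Foxf1, the paralogue of Foxf2, acts in the mesenchyme of lung and gut downstream of hedgehog signals. Signals were 2856, 3249 and 2616 in iLarge T BMSC, against 784, 563 and 613 in naïve BMSC. Every iLarge T array was higher than every naïve array. The difference was 4.48-fold (log2 2.16 ± 0.34 SE, limma, adjusted p = 0.00764). Without iLarge T replicate 4 the log2 value was 2.08 and the adjusted p 0.0524, and with naïve replicate 1 as the lone naïve array 1.88 and 0.0654. The other probe set of Foxf1 had a log2 value of 2.42 (adjusted p = 0.0959).

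Foxs1 is found in developing sensory neurons and around blood vessels of the mouse. It had signals of 4454, 1157 and 2417 in iLarge T BMSC and 30.6, 9.9 and 138 in naïve BMSC. Replicate 2 was the highest iLarge T array, and all naïve arrays were near background. Foxs1 was at least 10.6-fold higher in iLarge T BMSC (limma, adjusted p = 0.00972), with a bound of 7.65 to 15.0 when 1 array was left out. Omitting iLarge T replicate 2 gave an adjusted p of 0.0681, and omitting replicate 6 one of 0.0592.

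Foxd2, which is active in paraxial mesoderm and kidney, gave 942, 1643 and 1276 in iLarge T BMSC, against 264, 256 and 271 in naïve BMSC. The naïve arrays were nearly equal, and 1 of them lay under its 40th percentile. The difference was 4.76-fold (log2 2.25 ± 0.49 SE, limma, adjusted p = 0.0310). The call was lost when any 1 array except naïve replicate 1 was left out, with adjusted p-values of 0.0630 to 0.164, and also with that replicate as the lone naïve array (0.146). The other probe set of Foxd2 had a log2 value of 3.60 (adjusted p = 0.0796).

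Foxc1 is needed in mice for the growth of the meninges and, in marrow, for the stromal cells that make Cxcl12. Its signals were 7635, 8404 and 11192 in iLarge T BMSC and 4287, 2165 and 1707 in naïve BMSC. Naïve replicate 1 was the highest naïve array and iLarge T replicate 6 the highest of all. Foxc1 was 3.57-fold higher in iLarge T BMSC (log2 1.83 ± 0.36 SE, limma, adjusted p = 0.0198), and its other probe set was called as well (log2 1.93, adjusted p = 0.0365). Leaving out any 1 array except naïve replicate 1 ended this call, with adjusted p-values of 0.0599 to 0.0912, and with replicate 1 as the lone naïve array the log2 value was 1.06 (adjusted p = 0.245).

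Foxc2, a factor of lymphatic valves and of mesenchyme, was not called. It gave 6620, 8155 and 12427 in iLarge T BMSC, against 5832, 1250 and 1292 in naïve BMSC. Naïve replicate 1 was over 2-fold above both other naïve arrays and near the lowest iLarge T array, although the groups did not overlap. The log2 fold change was 2.05 ± 0.55 (SE, limma, adjusted p = 0.0698). Without naïve replicate 1 it was 2.78 (adjusted p = 0.000424), and against that replicate alone 0.59 (adjusted p = 0.642). The remaining FoxD genes were dim. Foxd3, a neural crest factor, lay at 65.0 to 511 in iLarge T and 128 to 201 in naïve BMSC, and Foxd4 at 21.8 to 368 in iLarge T and 12.5 to 274 in naïve BMSC, with log2 values of 0.23 and 0.91 and adjusted p-values of 0.941 and 0.839.

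Several of these genes are neighbours. On chromosome 13, Foxq1, Foxf2 and Foxc1 follow each other with 0 protein-coding genes between them in RefSeq, and on chromosome 8, Foxf1, Foxc2 and Foxl1 stand together with 1 other gene, Mthfsd, between Foxf1 and Foxc2. The log2 fold changes were 0.87, 3.16 and 1.83 along the chromosome 13 cluster. Its nearest measured neighbours, Exoc2 and Gmds, had values of 0.83 (adjusted p = 0.125) and 0.47 (adjusted p = 0.480). Along the chromosome 8 cluster the values were 2.16, 2.05 and 1.76. Mthfsd, inside it, had 1850, 944 and 1277 in iLarge T BMSC and 2473, 2817 and 2732 in naïve BMSC, a log2 value of -1.03 (adjusted p = 0.142), and the outer neighbour Irf8 had a value of 0.07 (adjusted p = 0.988). The neighbour on the other side, 1700018B08Rik, gave 358, 373 and 236 in iLarge T BMSC, against 129, 193.5 and 67.3 in naïve BMSC, all near background in the naïve group (adjusted p = 0.432). Foxl1, a factor of the mesenchyme under the gut lining, was dim, at 36.2 to 284 in iLarge T and 16.6 to 37.3 in naïve BMSC (adjusted p = 0.505). On chromosome 4, Foxe3, a lens factor next to Foxd2, was near background on all 6 arrays.

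**Figure D2:**
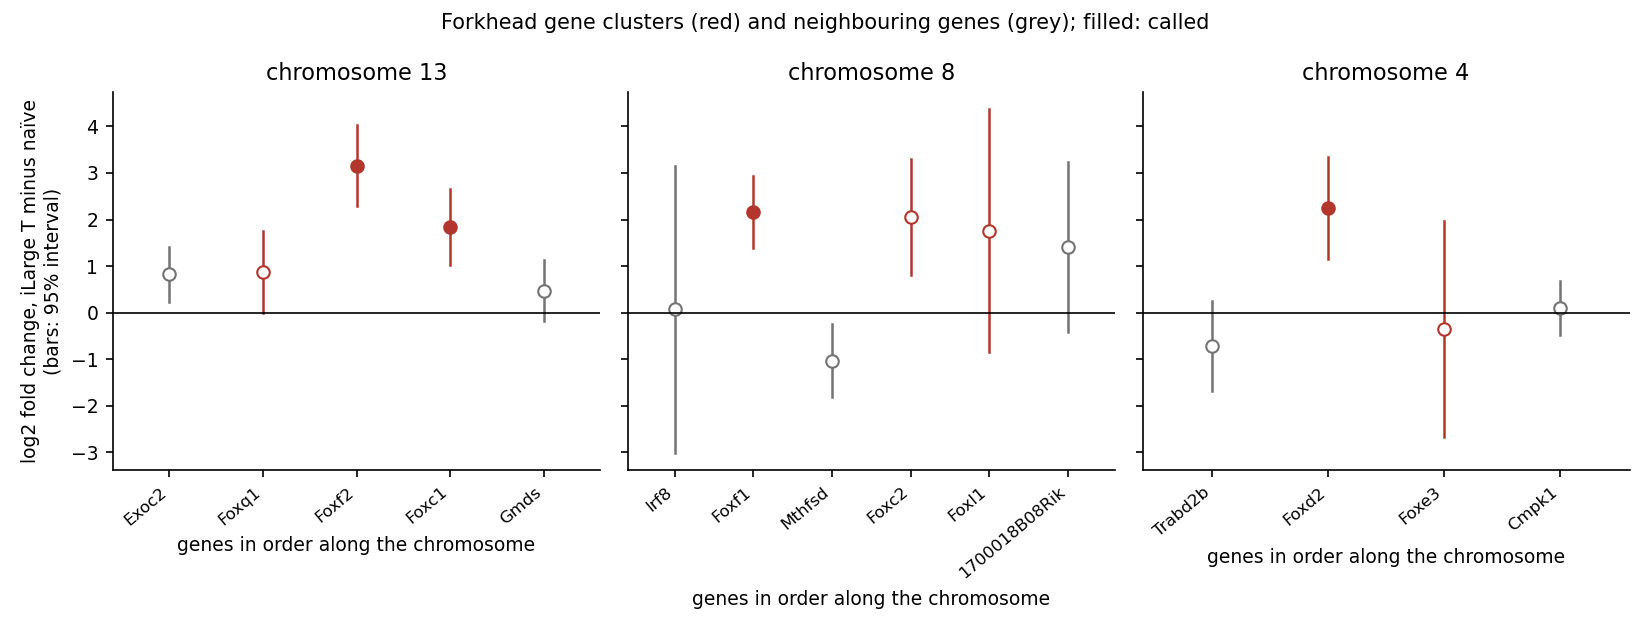
Log2 fold change (iLarge T minus naïve) with its 95% interval for 3 groups of adjacent forkhead genes (red) and the nearest measured protein-coding genes (grey), in chromosome order. Filled points were called. Foxf2, Foxc1, Foxf1 and Foxd2 were called, and 0 of the neighbouring genes were, while Mthfsd at -1.03 lies between Foxf1 at 2.16 and Foxc2 at 2.05.

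RefSeq holds promoter windows of 300 bases around annotated starts (build GRCm38.p6) for 24 of the 37 members, 29 windows in all. The windows of the 4 called genes Foxd1, Foxf2, Foxc1 and Foxd2 are printed 5′ to 3′ on the strand of the gene because these genes were all called higher and are rich in CG dinucleotides, the sites of DNA methylation, with each CG in capitals. Foxf2 and Foxc1 are neighbours on chromosome 13.
Foxd1 (chr13:98353995-98354294, plus strand, 15 CG): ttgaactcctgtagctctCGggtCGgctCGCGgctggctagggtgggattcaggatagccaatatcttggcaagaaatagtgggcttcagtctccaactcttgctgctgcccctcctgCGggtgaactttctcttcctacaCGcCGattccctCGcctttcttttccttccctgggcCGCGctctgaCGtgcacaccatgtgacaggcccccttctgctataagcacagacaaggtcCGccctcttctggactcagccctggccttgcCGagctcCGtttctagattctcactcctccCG
Foxf2 (chr13:31625566-31625865, plus strand, 27 CG): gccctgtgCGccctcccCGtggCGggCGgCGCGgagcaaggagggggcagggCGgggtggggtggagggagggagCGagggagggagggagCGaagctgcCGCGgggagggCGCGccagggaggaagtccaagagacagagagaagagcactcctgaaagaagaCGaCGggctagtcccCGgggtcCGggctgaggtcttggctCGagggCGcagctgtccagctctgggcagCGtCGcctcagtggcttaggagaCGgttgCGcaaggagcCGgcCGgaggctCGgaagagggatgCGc
Foxc1 (chr13:31806396-31806695, plus strand, 32 CG): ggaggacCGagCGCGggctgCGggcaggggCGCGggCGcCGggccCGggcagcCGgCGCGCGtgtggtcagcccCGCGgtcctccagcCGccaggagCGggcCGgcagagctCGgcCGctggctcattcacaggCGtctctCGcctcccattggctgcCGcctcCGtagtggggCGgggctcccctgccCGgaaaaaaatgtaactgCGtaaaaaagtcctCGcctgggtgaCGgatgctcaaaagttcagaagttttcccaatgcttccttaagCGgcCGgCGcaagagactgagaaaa
Foxd2 (chr4:114908849-114909148, minus strand, 26 CG): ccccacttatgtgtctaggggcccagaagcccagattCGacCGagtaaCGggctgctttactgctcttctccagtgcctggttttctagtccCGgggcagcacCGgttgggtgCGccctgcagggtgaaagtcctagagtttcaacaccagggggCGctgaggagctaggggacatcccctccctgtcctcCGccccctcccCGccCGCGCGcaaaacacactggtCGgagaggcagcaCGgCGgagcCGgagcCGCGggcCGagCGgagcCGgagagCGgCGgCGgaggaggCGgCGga
The ratio of observed to expected CG was 0.62 for Foxd1, 0.79 for Foxf2, 0.94 for Foxc1 and 0.76 for Foxd2. Over the 29 windows of members its median was 0.69, against 0.38 over all 32851 windows, and the median share of G and C was 63.0%, against 52.7%. The core forkhead motif GTAAACA, searched on both strands, was in 1 of the 29 member windows (Foxa1) and in 3.65% of all windows, and the Gli motif GACCACCC was in 0 of the 29 and in 0.807% of all. CCAAT was in 13 of the 29, those of Foxc1 and Foxd1 among them, and in 37.4% of all. A match of letters is a description of the window and not a bound site.

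Foxa2 was the one member called lower. It opens chromatin in the endoderm and in the floor plate of the neural tube, and gave 307, 502 and 108 in iLarge T BMSC, against 3672, 2824 and 2027 in naïve BMSC. All iLarge T arrays were far under all naïve arrays, and 1 of them lay under its 40th percentile. Foxa2 fell by 3.43 ± 0.60 (SE) on the log2 scale in iLarge T BMSC (limma, adjusted p = 0.0112), being 10.8-fold higher in naïve BMSC. Without naïve replicate 3 the log2 value was -3.42 and the adjusted p 0.0585, and against naïve replicate 1 alone -3.85 and 0.101. Foxa1, its paralogue, had signals of 1416, 2117 and 217 in iLarge T BMSC and 27.9, 33.5 and 138 in naïve BMSC. Replicates 2 and 4 were high, replicate 6 was low, and all naïve arrays were near background. The bound was a 3.97-fold difference, and Foxa1 was not called (limma, adjusted p = 0.0651), while without iLarge T replicate 6 the bound was 7.92-fold (adjusted p = 0.0459). Foxa3, a liver factor, lay at 9.9 to 241 in iLarge T and 119 to 434 in naïve BMSC (adjusted p = 0.381). Of 8 endoderm and hepatic markers, 0 were called by limma or by the methods' t-tests, with 2 at an unadjusted p under 0.05 by limma.

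**Figure D3:**
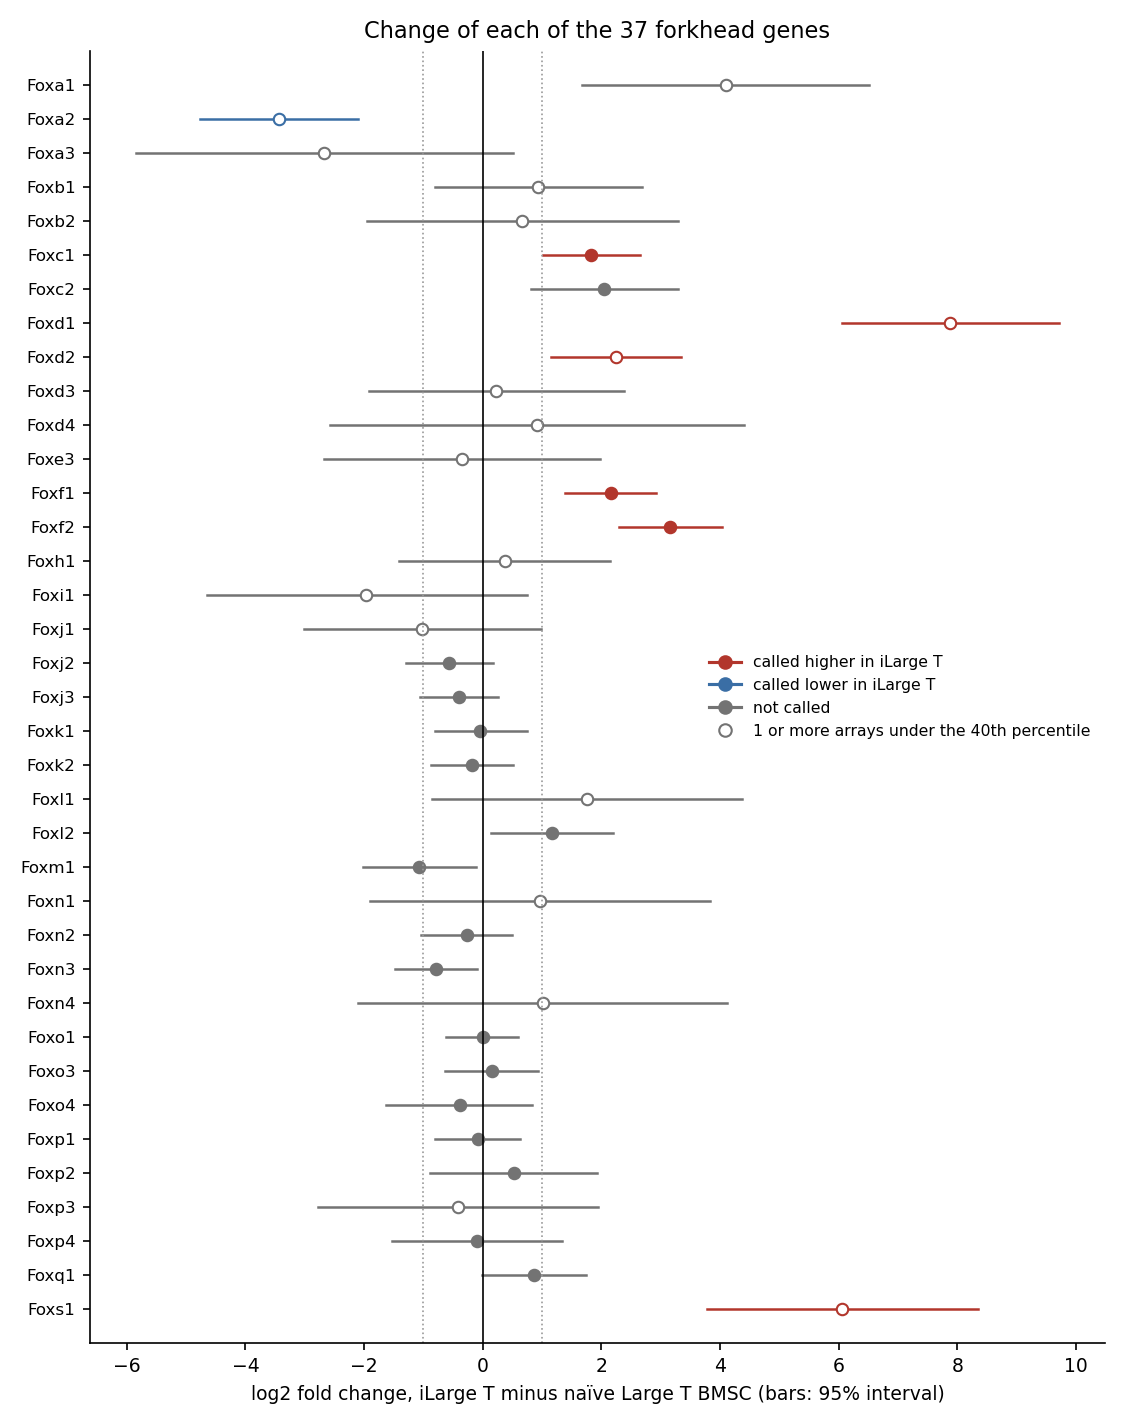
Log2 fold change (iLarge T minus naïve, x axis) with its 95% interval for each of the 37 forkhead genes in alphabetical order. Red genes were called higher and the blue gene lower, and open points had at least 1 array under its 40th percentile. Filled FoxJ, FoxK, FoxN, FoxO and FoxP genes lie between -0.79 and 0.52, and the 6 red points lie to the right of them. The fitted points of Foxd1, Foxs1 and Foxa1, near background on the naïve arrays, have no order among themselves.

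Foxm1 switches on the genes of G2 and mitosis, together with B-Myb and the MuvB complex. Its brightest probe set (1417748_x_at) gave 929, 822 and 468 in iLarge T BMSC and 1762, 1564 and 1202 in naïve BMSC. All iLarge T arrays lay under all naïve arrays, by a log2 value of -1.07 ± 0.43 (SE), and the gene was not called (limma, adjusted p = 0.221). The ending x_at marks a probe set whose probes may also bind other transcripts. Another probe set of Foxm1 (1448834_at) gave 71.7, 811 and 192 in iLarge T BMSC, against 1989, 2918 and 3780 in naïve BMSC. That probe set was called lower (log2 -3.65 ± 0.79 SE, limma, adjusted p = 0.0289). One more (1448833_at) gave 105, 469 and 469 in iLarge T BMSC and 2082, 1245 and 1661 in naïve BMSC, with a log2 value of -2.51 (adjusted p = 0.0594), and the last (1437138_at) was dim.

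The genes that FoxM1 drives moved together. Of 27 measured targets with roles in mitosis, 20 were lower in iLarge T BMSC (74.1%, beside 3.26% of all genes) and 0 higher, with a median log2 fold change of -2.50 beside 0.06 over all genes. All 3 iLarge T arrays lay under all 3 naïve arrays for 24 of the 27, beside 13.1% of all genes. Nek2, a kinase that splits the centrosomes, gave 168, 1136 and 380 in iLarge T BMSC and 5378, 7062 and 6296 in naïve BMSC (log2 -3.90, limma, adjusted p = 0.00665). Ccnb2, a cyclin of mitosis, gave 933, 2439 and 1616 in iLarge T BMSC, against 18523, 18636 and 15986 in naïve BMSC (log2 -3.52, limma, adjusted p = 0.000969). Aurkb, a mitotic kinase, Kif2c, a kinesin, Top2a, a topoisomerase, and Cenpa, a centromere histone, changed by -2.98, -2.97, -2.97 and -2.85 on the log2 scale. iLarge T replicate 4 was the highest iLarge T array for each of these 6 genes, yet below every naïve array. The 7 targets not called were Ccnf, Cdkn3, Skp2, Kpna2, Cks1b, Cenpb and Gtse1, and their log2 values lay between -2.20 and 0.38. Leaving out 1 array gave 11 to 21 targets called lower, of which the lowest counts were 12, 11 and 12 when iLarge T replicate 2, iLarge T replicate 6 or naïve replicate 3 was omitted, while the methods' t-test called 0 on log2 signals, with 23 at an unadjusted p under 0.05, and 1 on linear signals.

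**Figure D4:**
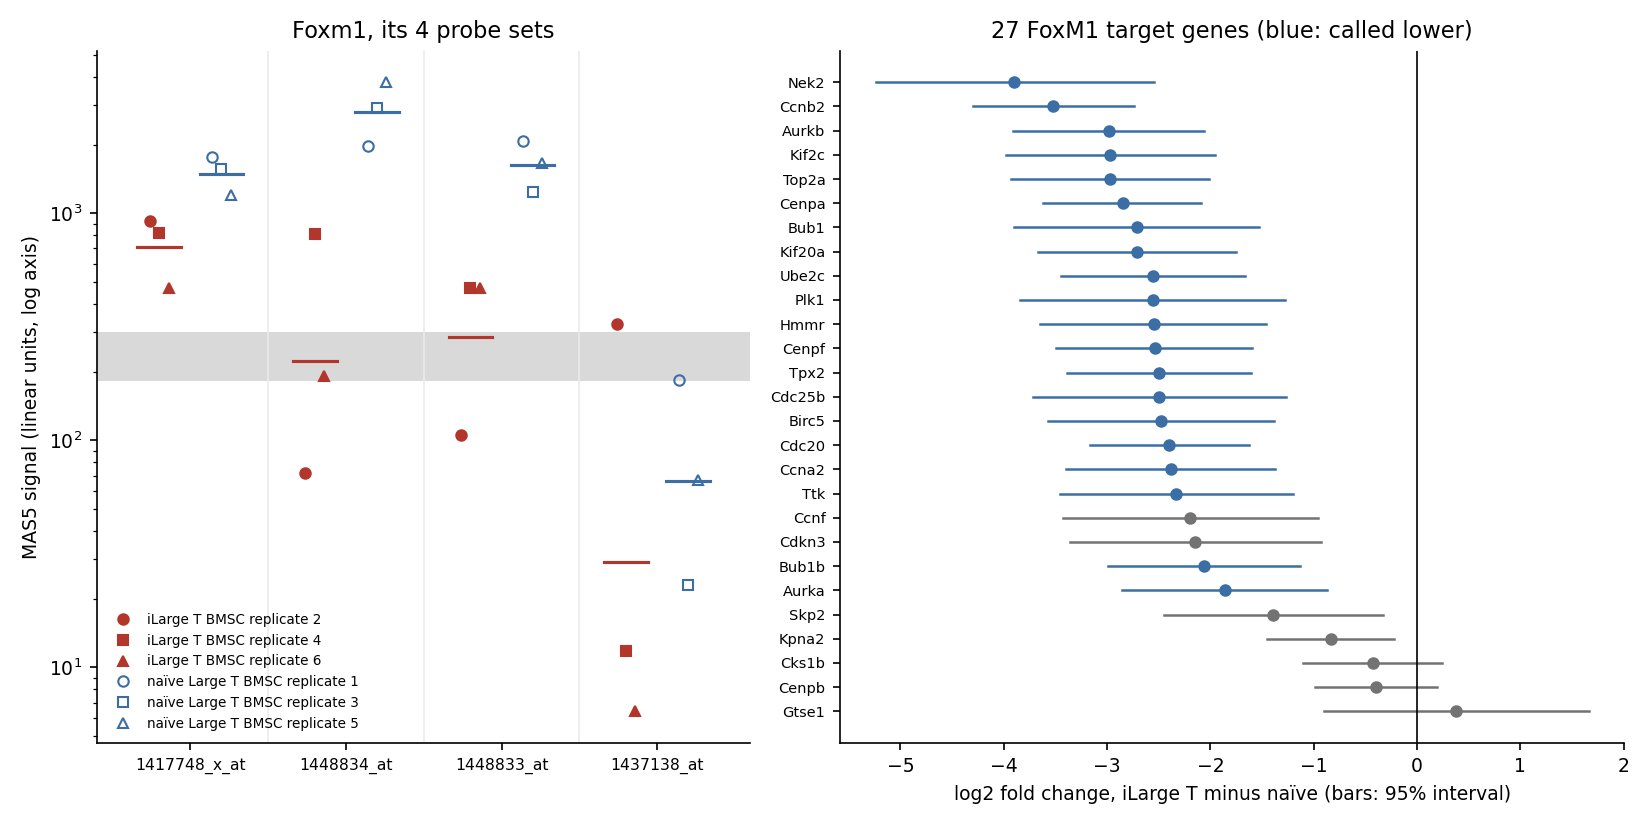
Left, MAS5 signals (log axis) of the 4 probe sets of Foxm1 with the iLarge T arrays filled in red and left of the open blue naïve arrays, the grey band spanning the arrays' 40th percentiles. Right, log2 fold change with its 95% interval for 27 FoxM1 targets, of which the 20 in blue were called lower in iLarge T BMSC. In 3 of the 4 probe sets the groups do not overlap.

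The partners of FoxM1 were lower for 4 of 11 genes (36.4%, beside 3.26% of all genes), with 0 higher and a median log2 value of -1.13, while the methods' t-test called 0 on either scale, with 6 at an unadjusted p under 0.05. Rbl1, the pocket protein p107, gave 891, 1786 and 1158 in iLarge T BMSC, against 6565, 11291 and 10196 in naïve BMSC (log2 -2.89, limma, adjusted p = 0.00218). Lin54, the DNA-binding subunit of MuvB, Tfdp1, a partner of the E2F factors, and Rbbp4, a histone-binding subunit, changed by -1.53, -1.28 and -1.13. Mybl2, which encodes B-Myb, gave 393, 49.4 and 236 in iLarge T BMSC and 1435, 949 and 1062 in naïve BMSC. The groups did not overlap, but the test was not passed (log2 -2.77, adjusted p = 0.0863). Lin9, Lin37 and Lin52, the other measured MuvB subunits, were not called. Large T antigen itself binds the pocket proteins, and by the study's description the cells of all 6 samples carry its gene. The part of recipient cells, which lack that gene, was not tested, nor was the bearing of large T antigen on these values.

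The 3 measured FoxO genes, which link growth factor signals to cell cycle arrest, stress resistance and metabolism, were not called. Foxo1 gave 2591, 3258 and 2849 in iLarge T BMSC and 2822, 2957 and 2903 in naïve BMSC. The groups overlapped fully, and the log2 fold change was -0.00 with a 95% interval of -0.61 to 0.60 (limma, adjusted p = 0.996). Foxo3 gave 4097, 3276 and 3069 in iLarge T BMSC, against 1958, 3454 and 4500 in naïve BMSC, a log2 value of 0.15 with an interval of -0.64 to 0.93 (adjusted p = 0.892). Foxo4 gave 723, 494 and 1150 in iLarge T BMSC and 505, 1156 and 1589 in naïve BMSC (log2 -0.39, adjusted p = 0.794). Array signals give transcript levels and no information on where the FoxO proteins sit in the cell.

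Genes known as FoxO targets did not move as a block. Of 36 measured, 7 were higher in iLarge T BMSC (19.4%, beside 3.54% of all genes) and 1 was lower (2.78%, beside 3.26%). The median log2 value was 0.34, beside 0.06 over all genes. Pdk4, a kinase that holds pyruvate out of the mitochondrial cycle, gave 4164, 5467 and 1877 in iLarge T BMSC and 428, 96.4 and 65.9 in naïve BMSC (log2 4.65, limma, adjusted p = 0.00765). The others called higher were S1pr1, a lipid receptor (4.0), Ccnd1, cyclin D1 (3.26), Cdkn1a, the inhibitor p21 (2.67), Rictor, a subunit of the complex that phosphorylates Akt (1.72), Cat, catalase (1.51), and Cited2, a transcriptional coregulator (1.12). FoxO factors raise Cdkn1a, Rictor and Cat and repress Ccnd1. Cdkn1b, the inhibitor p27 and a standard FoxO target, gave 3979, 2628 and 2659 in iLarge T BMSC, against 11306, 25239 and 29398 in naïve BMSC, and fell by 2.75 on the log2 scale (limma, adjusted p = 0.00369).

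The naïve arrays disagreed on several of these targets. Ccnd2, cyclin D2, gave 104105, 68912 and 87617 in iLarge T BMSC and 92139, 3201 and 4648 in naïve BMSC, so naïve replicate 1 was as high as the iLarge T arrays (adjusted p = 0.149). Gadd45a, a stress gene, gave 3280, 5810 and 7701 in iLarge T BMSC and 908, 18149 and 19433 in naïve BMSC, with naïve replicate 1 the lowest (adjusted p = 0.902). Leaving out 1 array gave 1 to 8 FoxO targets called higher and 1 to 4 called lower. Omitting iLarge T replicate 2 left 1 called higher and 2 lower, and omitting iLarge T replicate 4 left 2 higher. The number called higher was 3 when naïve replicate 3 was omitted and 4 when naïve replicate 5 was, and 4 were lower when naïve replicate 1 was. The methods' t-test called 1 on either scale.

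Among 26 measured regulators that act on FoxO proteins, 2 were higher (7.69%, beside 3.54% of all genes) and 0 lower in iLarge T BMSC, with a median log2 value of -0.01. The methods' t-test called 0 of them, with 5 at an unadjusted p under 0.05 on log2 and 6 on linear signals. Sgk1, a kinase that phosphorylates FoxO3, gave 51204, 62631 and 21718 in iLarge T BMSC and 9329, 3361 and 2448 in naïve BMSC (log2 3.28, limma, adjusted p = 0.00764). Ywhag, a 14-3-3 protein that holds phosphorylated FoxO, gave 56224, 69793 and 60437 in iLarge T BMSC, against 26633, 28653 and 31531 in naïve BMSC (log2 1.10, limma, adjusted p = 0.0211). The kinases Akt1 and Akt2 had log2 values of 0.33 and -0.09, with overlapping groups. Of 10 co-repressors that forkhead factors recruit, such as the Tle and Ctbp genes, 0 were called by limma or by the methods' t-tests, and 2 had an unadjusted p under 0.05 by each of them.

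**Figure D5:**
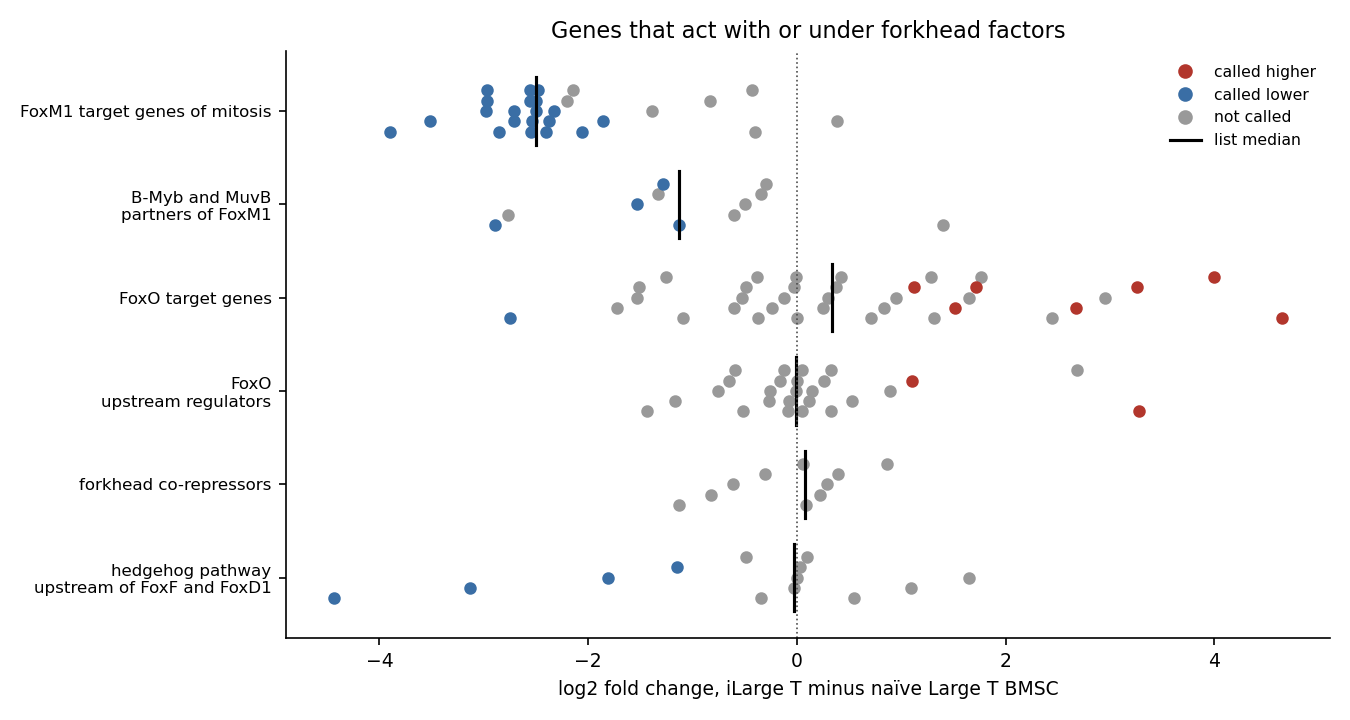
Log2 fold change (iLarge T minus naïve, x axis) of each measured gene in 6 groups that act with, on or under forkhead factors, with the group median as a black line. Of the FoxM1 targets 20 of 27 are blue, called lower, and the FoxO targets spread from -2.75 to 4.65 around a median of 0.34.

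Of 16 members of the FoxJ, FoxK, FoxN, FoxO and FoxP subclasses, 0 were called by limma or by the methods' t-tests. Over all genes limma called 3.54% higher and 3.26% lower, so 0 of 16 is near the share over all genes. By limma, 1 of them (Foxn3) had an unadjusted p under 0.05. Foxj1, Foxn1, Foxn4 and Foxp3 had arrays under the 40th percentile. For 12 of these that were above the 40th percentile on all 6 arrays (Foxj2, Foxj3, Foxk1, Foxk2, Foxn2, Foxn3, Foxo1, Foxo3, Foxo4, Foxp1, Foxp2 and Foxp4), log2 values lay between -0.79 and 0.52 and the 95% intervals within -1.63 to 1.93. Foxk1 and Foxk2, repressors of autophagy genes, had log2 values of -0.04 and -0.18, with intervals of -0.81 to 0.74 and -0.87 to 0.51. Foxn3, a repressor linked to cell cycle checkpoints, had the lowest of these values, with 2431, 3024 and 3801 in iLarge T BMSC and 4027, 5161 and 6945 in naïve BMSC. The groups of Foxn3 did not overlap (log2 -0.79 ± 0.31 SE, limma, adjusted p = 0.212), and its other 3 probe sets had values of -0.67, -0.82 and -0.34.

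The arrays of a group differed among themselves for the FoxP genes. Foxp1, a repressor used in B cells, heart and lung, gave 14632, 7580 and 10301 in iLarge T BMSC, against 15717, 9235 and 9365 in naïve BMSC. Replicate 2 of iLarge T and replicate 1 of naïve BMSC were each the highest of their group, and the log2 value was -0.08 (adjusted p = 0.937). Foxp2, a factor of speech circuits in the brain, was the reverse, with 1067, 2160 and 2740 in iLarge T BMSC and 456, 1967 and 2400 in naïve BMSC, replicates 2 and 1 being over 2-fold under both others of their groups. Foxp4 gave 689, 1705 and 3604 in iLarge T BMSC and 811, 2282 and 2769 in naïve BMSC, in the same order. Over the 19 members above the 40th percentile on all arrays, naïve replicate 1 was over 2-fold under both other naïve arrays for 3 (Foxo4, Foxp2 and Foxp4) and over 2-fold above them for 1 (Foxc2). Naïve replicates 3 and 5 and iLarge T replicate 4 stood apart in this way for 0 of the 19.

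Foxl2 and Foxq1 were higher on each iLarge T array than on each naïve array without passing the test. Foxl2, a factor of ovarian granulosa cells, gave 827, 1445 and 1670 in iLarge T BMSC and 728, 473 and 508.5 in naïve BMSC (log2 1.17 ± 0.46 SE, limma, adjusted p = 0.215). Foxq1, which in mice shapes the hair shaft, gave 1753, 1572 and 1072 in iLarge T BMSC, against 933, 727 and 713 in naïve BMSC (log2 0.87 ± 0.39 SE, adjusted p = 0.290). The antisense gene Foxl2os, which lies beside Foxl2, gave 244, 337 and 229 in iLarge T BMSC and 24, 105 and 33.4 in naïve BMSC (adjusted p = 0.205). Fendrr, the noncoding gene next to Foxf1, lay at 24.2 to 570 in iLarge T BMSC and 9.0 to 325 in naïve BMSC, with overlapping groups (adjusted p = 0.691).

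Foxp3, Foxj1, Foxb1, Foxh1 and Foxn4, factors of other lineages, were not called. Foxb2, Foxe3 and Foxn1 were near background on all 6 arrays, and Foxi1 and Foxp3 on the iLarge T arrays alone. Near background on the naïve arrays alone were 7 members, Foxa1, Foxd1, Foxd3, Foxd4, Foxl1, Foxn4 and Foxs1. Of these, Foxd1 and Foxs1 were called higher. Foxp3, of regulatory T cells, gave 218, 34.8 and 155 in iLarge T BMSC and 97.7, 255 and 111 in naïve BMSC, where of 7 lymphocyte markers 0 were called by limma or by the methods' t-tests and 0 had an unadjusted p under 0.05 by any of them. Foxj1, of motile cilia, gave 51.4, 195 and 354 in iLarge T BMSC, against 335, 274 and 320 in naïve BMSC (adjusted p = 0.641), and of 9 ciliary genes 0 were called by limma or the t-tests, with 2 at an unadjusted p under 0.05 by limma. Foxb1, Foxh1 and Foxn4, factors of the developing brain, of Nodal signalling and of the retina, had adjusted p-values of 0.616 to 0.877.

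Some of the called members, such as Foxf2 and Foxc1, are known for roles in brain pericytes or in the meninges. Of 14 pericyte and mural markers, 3 were higher in iLarge T BMSC (21.4%, beside 3.54% of all genes) and 0 lower, with summed signals of 204135 to 275421 in iLarge T and 48853 to 195680 in naïve BMSC. Naïve replicate 1 was the highest naïve array of that sum. Pdgfrb, the receptor that recruits pericytes, gave 37998, 49816 and 57316 in iLarge T BMSC and 2547, 4278 and 4188 in naïve BMSC (log2 3.74, limma, adjusted p = 0.000420), and Cspg4, or NG2, changed by 3.56. Rgs5, a marker of brain pericytes, gave 5946, 1761 and 21367 in iLarge T BMSC and 245, 8.0 and 126 in naïve BMSC, at least 27.8-fold higher (limma, adjusted p = 0.0166). Kcnj8, Abcc9 and Higd1b, also markers of brain pericytes, were not called and lay at 15.0 to 290 in iLarge T and 7.1 to 104 in naïve BMSC. Of 13 meningeal and perivascular fibroblast markers, 3 were higher in iLarge T BMSC (23.1%, beside 3.54% of all genes) and 0 lower. These were Aldh1a2, the enzyme that makes retinoic acid in the meninges, with 6036, 4748 and 27491 in iLarge T and 2111, 869 and 452 in naïve BMSC, Rdh10, which makes its substrate, and Igf2, and the summed signal was 42657 to 122080 in iLarge T and 20460 to 36977 in naïve BMSC. Slc6a13 and Slc22a6, transporters of meningeal fibroblasts, lay at 16.2 to 117 in iLarge T and 8.8 to 234.5 in naïve BMSC.

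Some markers of other cells of the brain were called as well. Of 8 endothelial markers, 3 were higher in iLarge T BMSC (37.5%, beside 3.54% of all genes) and 1, Tek, was lower (12.5%, beside 3.26%). Cdh5, the cadherin of endothelial junctions, gave 2211, 2787 and 23797 in iLarge T BMSC and 210, 32.0 and 27.5 in naïve BMSC (at least 24.1-fold higher, limma, adjusted p = 0.00760), and Emcn and Flt1 were at least 23.3-fold and 6.71-fold higher. Of 9 astrocyte and neural progenitor markers, 3 were higher (33.3%, beside 3.54% of all genes) and 0 lower, with summed signals of 14443 to 26748 in iLarge T and 1656 to 2059 in naïve BMSC. These were Fabp7, a fatty acid binding protein of radial glia (98.6-fold, limma, adjusted p = 0.000581), Sox2, a factor of neural progenitors (at least 9.49-fold, adjusted p = 0.0238), and Nes, nestin (5.0-fold, adjusted p = 0.0108). Gfap and Aqp4, which mark astrocytes, were not called. The methods' t-test called 0 of the pericyte, meningeal, endothelial or astrocyte and neural progenitor markers on either scale, with 5, 4, 5 and 3 at an unadjusted p under 0.05 on log2 signals and 2, 2, 1 and 3 on linear signals.

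iLarge T replicate 6, whose macrophage and endothelial sums were the highest, was also the highest array for Foxd1, Foxf2, Foxc1 and Foxc2, and not for Foxf1, Foxs1 or Foxd2. Without it, the bound for Foxd1 was 58.8-fold, beside 68.1-fold with it, and log2 values were 3.06 for Foxf2 and 1.67 for Foxc1, beside 3.16 and 1.83 with it. These values do not bear on the part of other cells. Cdh5, Emcn and Csf1r were above every naïve array on iLarge T replicates 2 and 4 too, while Tek was under every naïve array. The mesothelial genes Upk3b, Upk1b, Gpm6a and Bnc1 were high on all naïve arrays and lower in iLarge T BMSC, as Foxa2 was. Other mesothelial genes differed among the naïve arrays. Msln, not called, had 1022, 42403 and 40853 in naïve and 471, 465 and 1314 in iLarge T BMSC. Wt1 and Lrrn4, both called lower, had 2274 and 2277 on naïve replicate 1. On naïve replicate 3 they had 14912 and 12432, and on naïve replicate 5 13504 and 12554. The part of mesothelial, endothelial, macrophage, pericyte, meningeal or neural transcripts in the forkhead values was not tested.

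Genes of the hedgehog pathway, which acts above the FoxF genes in lung and gut, were lower for 4 of 13 (30.8%, beside 3.26% of all genes) and higher for 0, with a median log2 value of -0.03. The methods' t-test called 0 of them on either scale, with 5 at an unadjusted p under 0.05 on log2 and 4 on linear signals. The 4 were Gas1 (-4.44), Cdon (-3.13) and Boc (-1.81), which help hedgehog bind its receptor, and Gli3 (-1.15), a transcription factor that acts mainly as a repressor. Gas1 gave 1799, 2560 and 4751 in iLarge T BMSC, against 39503, 79702 and 71068 in naïve BMSC (limma, adjusted p = 0.000643). Shh, a hedgehog ligand, gave 1131, 1863 and 864 in iLarge T BMSC and 658.5, 383 and 236 in naïve BMSC, and was not called (adjusted p = 0.141). Gli1 and Ptch1, the usual readouts of the pathway, were not called. Gli1 lay at 14.8 to 172 in iLarge T and 24.2 to 265 in naïve BMSC, and Ptch1 at 2226 to 2506 in iLarge T and 1701 to 3563 in naïve BMSC, with adjusted p-values of 0.994 and 0.928.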

How the data were processed

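Gene expression was measured on 6 Affymetrix mouse genome 430 arrays. The authors deposited MAS5 intensity values of 45101 probe sets, linear and scaled to a trimmed mean of 2500 per array. Median signals were 315 to 450.1 in iLarge T and 308 to 413.5 in naïve BMSC. A group was near background where each of its arrays was below its own 40th percentile.

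After 64 controls were left out, log2 signals of 45037 probe sets were fitted with limma 3.58.1 in R 4.3.3 (lmFit, then eBayes with trend), and p-values were adjusted by Benjamini-Hochberg over all 45037. The platform annotation gives 34945 probe sets 1 symbol, 932 several and 9160 none. RefSeq held 34741 of the first kind, and 0 names changed. Other steps used Python 3.11.15, pandas 2.3.3 and matplotlib 3.10.9. The fit was tested on simulated data.

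Members, gene lists and alternatives were chosen with earlier results of these data known, and the lists were written from general knowledge. Named were all called members, Foxc1, Foxd1, Foxf2, Foxm1, the FoxO genes, members above the arrays' median level whose groups did not overlap, and up to 6 called genes a list and direction (4 for markers). Other genes are named as ranges, neighbours or examples picked with their values seen. Settings tried were the t-test of the methods (log2 and linear), no trend, quantile normalization, leaving out dim probe sets, raising signals to the 40th percentile, a pseudocount of 16, omission of each array, another probe set or the mean of all, and other folds. Naïve replicate 1 as the lone naïve array was added after seeing the data. P-values cover the spread between pooled cultures, which may be technical.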

Additional observations from a re-analysis of the deposited data

How the results depend on the processing

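No paired analysis was possible because the groups share no replicate numbers and the sources used here do not say which arrays came from the same set of experiments. Quantile normalization, the filter on dim probe sets, log2 of the signal plus 16 and the mean over a gene's probe sets left the counts of called forkhead genes, FoxM1 targets and FoxO targets within 1.5 times of those reported. The methods' t-test on log2 signals called 0 forkhead genes higher, 0 lower, 0 FoxM1 targets lower, 1 FoxO target higher and 0 lower, and on linear signals 0, 0, 1, 1 and 0. Limma without the intensity trend called 2 forkhead genes higher (Foxd1 and Foxf2), 0 lower, 1 FoxM1 target lower, 0 FoxO targets higher and 0 lower. The cause was not tested. Leaving out 1 array gave 3 to 7 forkhead genes higher, 0 to 1 lower, 11 to 21 FoxM1 targets lower, 1 to 8 FoxO targets higher and 1 to 4 lower. With naïve replicate 1 as the lone naïve array, assumed to vary like the iLarge T arrays, 3 forkhead genes were higher and 0 lower. The most variable probe set of each gene gave 2 forkhead genes lower (Foxa2 and Foxm1) and 0 FoxO targets lower, the floor at the 40th percentile 2 FoxO targets lower, and a 4-fold threshold 4 FoxO targets higher.

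Over 256 combinations of a named gene and a setting, 204 kept direction and call, 40 lost the call, 4 gained it and 8 changed sign. A named gene that was not called in the main fit counted as kept where it stayed uncalled, and all 40 lost calls were those of called members. For a gene with 1 probe set, the most variable probe set is the same one. The 204 therefore do not measure how stable the calls were. The sign changes were those of genes with values near 0. Foxo1 had 0.00 by the linear t-test, 0.09 after quantile normalization, 0.03 against naïve replicate 1 alone, and -0.09 to 0.07 when 1 array was left out. Foxo3 had -0.19 to 0.41 when 1 array was left out, the lowest without naïve replicate 1, and Foxo4 had 0.56 against that replicate alone. Foxc2 was called with the floor at the 40th percentile (adjusted p = 0.00767). Signals under the 40th percentile give no order, so folds of Foxd1 and Foxs1 are bounds.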
